A study of Oryza sativa with 6 samples.

Results

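The rice starch synthases are a small family of glucosyltransferases, and all 10 of its genes were followed here in filling seeds of a mutant and a wild-type near-isogenic line. The genes were taken by locus identifier from the deposited expression table. The 10 loci matched 11 of its 91080 rows, and for SSIIIa, which had a pair of rows, the row with the larger summed count was used. The genes are GBSSI, GBSSII, SSI, SSIIa, SSIIb, SSIIc, SSIIIa, SSIIIb, SSIVa and SSIVb, and all 10 passed the filter on low counts.

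RNA was sequenced from developing seeds of Oryza sativa at the filling stage, labelled 15 DAF, from plants grown in a paddy field. The line NIL-gaf1 carries the genotype labelled mutant and the line NIL-GAF1 the genotype labelled wild type, with 3 libraries each. The sample titles carry a further pair of codes, F1287gif2 for the mutant and F1288GIF2 for wild type. The labels do not say which locus differs, and a selected locus and any segment inherited with it cannot be told apart. Nor do they tell whether replicate libraries stem from different plants or plots, so the p-values rest on a spread among libraries that may be technical.

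Starch synthases add glucose from ADP-glucose to growing glucan chains. The granule-bound forms (GBSS) make amylose, the nearly linear polymer of starch, and the soluble forms (SS) extend the chains of amylopectin, the branched polymer. In rice, several classes exist as an endosperm-type gene used in the filling grain and a leaf-type gene used in leaves and in young seed tissue. GBSSI, SSIIa and SSIIIa are the endosperm-type genes, and GBSSII, SSIIb and SSIIIb are their leaf-type counterparts. SSI, SSIIc, SSIVa and SSIVb are transcribed more evenly and are called steady here.

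Wherever 3 values of a line follow each other, they are those of its libraries 1, 2 and 3 in this order. Libraries held 17236796 to 25402680 counts. Features described as glutelin, prolamin, globulin, seed allergen or amylase inhibitor, the storage products of the grain, took 0.414%, 7.18% and 21.5% of mutant counts, and 37% to 43.5% of the wild-type libraries. The mutant libraries thus differed widely from one another. Of 7 starchy endosperm markers, all 7 were lower in every mutant library than in any wild-type library, with summed levels of 1227 to 97560 against 330813 to 392653 normalized CPM (counts set to a shared library size by the scaling described next), though 1 of the 7 was called and 6 were not. All 5 embryo and aleurone markers were also lower without overlap, at 285.9 to 1499 against 3543 to 4675, and 4 of the 5 were called. Of all tested features 49% did not overlap between the lines, and 23.8% were lower in this way. The share called was 31.2%, with 15.4% called lower. Of 7 green pericarp markers 6 overlapped between lines, with sums of 717.3 to 1376 against 859.1 to 1087. Marker calls depended on the scaling. With libraries scaled by total count alone, 2 of the 7 endosperm markers and 3 of the 5 embryo and aleurone markers were called lower. With that scaling 6 of the 7 pericarp markers were called higher, beside 71.9% of all tested features higher and 3.76% lower. No marker was at 0 in all libraries. In seed RNA, fewer cells of a type and less RNA per cell cannot be told apart.

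Levels are given as normalized FPKM, the deposited FPKM, a length-scaled level, divided by the TMM factor of the library, so that genes of different length and libraries of different composition can be set side by side. TMM scales libraries so that the typical gene is level between them. Log2 fold changes are mutant over wild type from edgeR's quasi-likelihood test on counts, called at an adjusted p under 0.05 (Benjamini-Hochberg over all 22937 tested features).

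In the wild-type grain, GBSSI (OS06G0133000, file symbol WAXY, LOC_Os06g04200, chromosome 6, 1765622 to 1770574, coordinates as deposited, build not stated) was the most abundant starch synthase transcript. It stood at 2384, 2138 and 2469 normalized FPKM in wild type, and at 170.8, 342.0 and 653.5 in the mutant. Every mutant library lay below every wild-type library, and the mutant libraries differed among themselves by 3.83 times. GBSSI, the enzyme of amylose synthesis in the endosperm, fell by 2.58 on the log2 scale (SE 0.56, 5.99-fold lower, edgeR adjusted p = 0.011). Without mutant library 2 it did not pass (adjusted p = 0.063), and leaving out mutant library 3 moved the log2 fold change to -3.21.

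Its leaf-type counterpart went the other way. GBSSII (OS07G0412100, LOC_Os07g22930, chromosome 7, 12916883 to 12924202), which makes amylose where starch is transient, was at 29.3, 22.2 and 14.4 normalized FPKM in the mutant. In wild type it was at 13, 13 and 11.7. All 3 mutant libraries were above all 3 wild-type libraries, mutant library 3 by little. GBSSII rose 1.75-fold (log2 fold change 0.81, SE 0.24, edgeR adjusted p = 0.036). The call was lost without mutant library 1 (adjusted p = 0.064) or 2 (0.098) and without wild-type library 1 (0.098), 2 (0.089) or 3 (0.11).

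**Figure D1:**
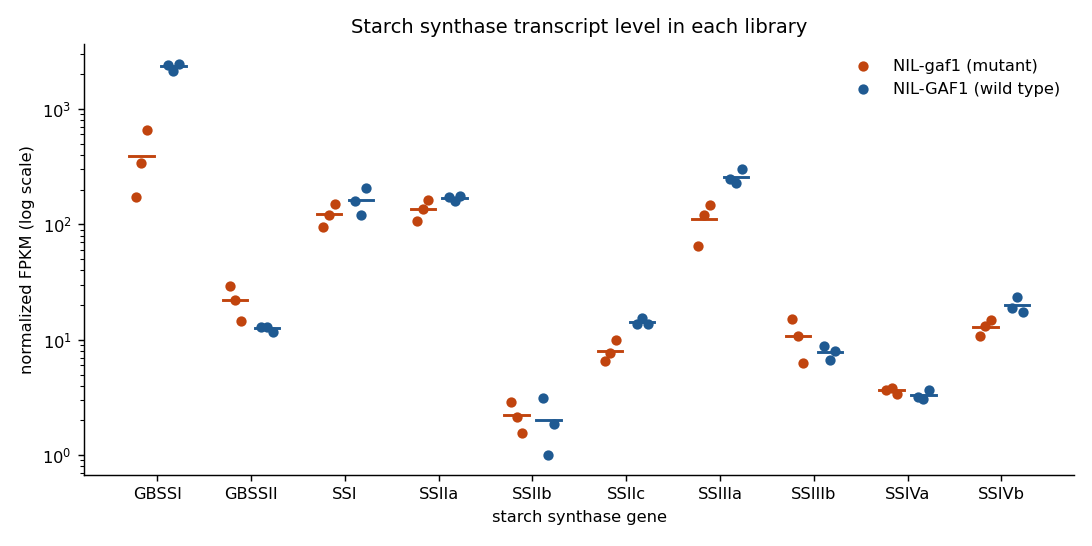
Each point is 1 library and each short line a mean of 3, with level in normalized FPKM on a log axis and the 10 starch synthase genes along the horizontal axis. GBSSI in the mutant line (170.8 to 653.5) lay wholly below the wild-type line (2138 to 2469), and GBSSII (14.4 to 29.3 against 11.7 to 13) wholly above it.

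Of the 10 genes 4 fell (GBSSI, SSIIIa, SSIIc and SSIVb), 1 rose (GBSSII) and 5 did not pass. Among all tested features 15.4% were called lower and 15.8% higher, and 31.2% in all. The median log2 fold change of the 10 was -0.37, beside 0.06 for all tested features. With TMM scaling the libraries of the lines did not overlap for 5 of the 10 genes, the same 5 that were called. With the same scaling 49% of all tested features did not overlap.

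Among the soluble enzymes of the endosperm, SSIIIa differed most. SSIIIa (OS08G0191433, LOC_Os08g09230, chromosome 8, 5352105 to 5362928), which makes long chains of amylopectin, was at 64.5, 121.2 and 147.7 normalized FPKM in the mutant and at 246.6, 228.8 and 300.2 in wild type. In normalized FPKM the lines did not overlap, and mutant library 1 was the lowest, while in deposited FPKM the lines overlapped. SSIIIa was 2.32-fold lower (log2 fold change -1.22, SE 0.36, edgeR adjusted p = 0.036). Its call was lost without mutant library 2 (adjusted p = 0.11) or without wild-type library 1 (0.096), 2 (0.07) or 3 (0.11), and with no filter on low counts the adjusted p was 0.065.

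The unused row at the same locus, OS08G0191500, covers 384 bases beside it (chromosome 8, 5362953 to 5363336). It held 158 to 449 counts per library, against 13700 to 24350 for the main row. Its levels of 10.3, 17.3 and 34.3 normalized FPKM in the mutant were below the 63.8, 55.9 and 79.9 of wild type. This row fell by 1.70 on the log2 scale (SE 0.40, edgeR adjusted p = 0.014), so both rows at the locus were lower.

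SSI and SSIIa, which build the short and intermediate chains of amylopectin, did not pass the test. SSI (OS06G0160700, LOC_Os06g06560, chromosome 6, 3079296 to 3086808) was at 95.3, 119.8 and 151.2 normalized FPKM in the mutant and at 160.6, 120.8 and 207.6 in wild type. SSIIa (OS06G0229800, LOC_Os06g12450, chromosome 6, 6748398 to 6753302) was at 107.8, 136.3 and 163.5 in the mutant and at 173.8, 159.0 and 175.8 in wild type. For both genes mutant library 3 reached into the wild-type range. The log2 fold changes were -0.42 (SE 0.28, edgeR adjusted p = 0.29) for SSI and -0.32 (SE 0.23, adjusted p = 0.33) for SSIIa. The level of SSI relative to SSIIa within a library was 0.879 to 0.925 in the mutant and 0.759 to 1.18 in wild type, so it overlapped between lines.

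The leaf-type soluble genes were low in both lines. SSIIIb (OS04G0624600, LOC_Os04g53310, chromosome 4, 31751600 to 31759420), the leaf-type form of the SSIII class, was at 15.2, 10.8 and 6.33 normalized FPKM in the mutant and at 8.87, 6.64 and 8.05 in wild type. Mutant libraries 1 and 2 were above all wild-type libraries and mutant library 3 was below them all. At a log2 fold change of 0.46 (SE 0.29) SSIIIb was not called (edgeR adjusted p = 0.26), and it was called without mutant library 3 (0.70, adjusted p = 0.024). SSIIb (OS02G0744700, LOC_Os02g51070, chromosome 2, 31233292 to 31238210), the leaf-type form of the SSII class, was the least abundant of the 10 in both lines. It was at 2.9, 2.14 and 1.57 in the mutant and at 3.12, 1 and 1.88 in wild type, from 50 to 468 counts per library. The wild-type spread of 3.11 times covered all of the mutant values, and the log2 fold change was 0.15 (SE 0.39, edgeR adjusted p = 0.8).

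Of the steady genes besides SSI, SSIIc and SSIVb fell relative to the typical gene. SSIIc (OS10G0437600, LOC_Os10g30156, file symbol SSII-1, chromosome 10, 15673243 to 15681075), another SSII form, was at 6.51, 7.73 and 9.97 normalized FPKM in the mutant and at 13.6, 15.4 and 13.8 in wild type. It fell by 0.82 on the log2 scale (SE 0.17, edgeR adjusted p = 0.01), and without mutant library 2 it missed the threshold (adjusted p = 0.05). SSIVb (OS05G0533600, LOC_Os05g45720, chromosome 5, 26485812 to 26493983) was at 10.7, 13.1 and 14.7 in the mutant and at 18.8, 23.7 and 17.3 in wild type. It belongs to the SSIV class, which in Arabidopsis starts new starch granules.

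For SSIIc and SSIVb alike, no mutant library reached a wild-type library in normalized FPKM. In deposited FPKM every mutant library was above every wild-type library. There SSIIc was at 12.3, 12.1 and 11.5 in the mutant and at 9.69, 9.65 and 9.02 in wild type. SSIVb was at 20.2, 20.6 and 17 in the mutant and at 13.5, 14.9 and 11.3 in wild type. SSIVb fell by 0.63 on the log2 scale (SE 0.18, edgeR adjusted p = 0.029). Its call was lost without mutant library 1 (adjusted p = 0.057) or 2 (0.093), without wild-type library 1 (0.073) or 2 (0.093), or with no filter on low counts (0.11). The other SSIV gene, SSIVa (OS01G0720600, LOC_Os01g52250, chromosome 1, 30032428 to 30041425), was at 3.69, 3.82 and 3.41 in the mutant and at 3.22, 3.06 and 3.66 in wild type. It had the narrowest mutant spread of the 10 genes, 1.12 times between its lowest and highest library, and it was not called (log2 fold change 0.14, SE 0.14, edgeR adjusted p = 0.47).

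The order of levels per length differed between the lines. In wild type the order was GBSSI (2330 ± 172.1 normalized FPKM, SD, n = 3), SSIIIa (258.5 ± 37.1), SSIIa (169.5 ± 9.14), SSI (163.0 ± 43.5), SSIVb (20 ± 3.36), SSIIc (14.3 ± 0.992), GBSSII (12.6 ± 0.724), SSIIIb (7.85 ± 1.13), SSIVa (3.31 ± 0.31) and SSIIb (2 ± 1.06). Of these neighbours, SSIIa and SSI overlapped, as did SSIVa and SSIIb, though SSIVa was above SSIIb in all 3 libraries. In the mutant the order was GBSSI (388.8 ± 244.7), SSIIa (135.8 ± 27.9), SSI (122.1 ± 28), SSIIIa (111.1 ± 42.5), GBSSII (22 ± 7.45), SSIVb (12.8 ± 2), SSIIIb (10.8 ± 4.43), SSIIc (8.07 ± 1.76), SSIVa (3.64 ± 0.21) and SSIIb (2.21 ± 0.67). There SSIIa, SSI and SSIIIa overlapped from neighbour to neighbour, as did GBSSII, SSIVb, SSIIIb and SSIIc. SSIIIa was thus at rank 2 in wild type and rank 4 in the mutant, and GBSSII at rank 7 in wild type and rank 5 in the mutant.

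Shares of the summed FPKM of the 10 genes do not depend on how libraries are scaled, but a lower share of one gene raises the shares of the others. GBSSI made up 78.8%, 78.9% and 76.9% of the starch synthase pool in wild type, and 33.7%, 43.9% and 56% in the mutant. The 3 leaf-type genes together held 0.826%, 0.76% and 0.675% in wild type, and 9.36%, 4.5% and 1.91% in the mutant. The share of GBSSI was lower in every mutant library, and the share of each of the other 9 genes was higher, with no overlap. The 4 steady genes together went from 6.68% ± 0.789 (SD, n = 3) in wild type to 19% ± 3.8 in the mutant, so a higher share was not particular to the leaf-type genes. All 10 genes together took 0.284% to 0.375% of counts in the mutant and 0.429% to 0.545% in wild type, and without GBSSI they took 0.211% to 0.244% and 0.138% to 0.185%.

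**Figure D2:**
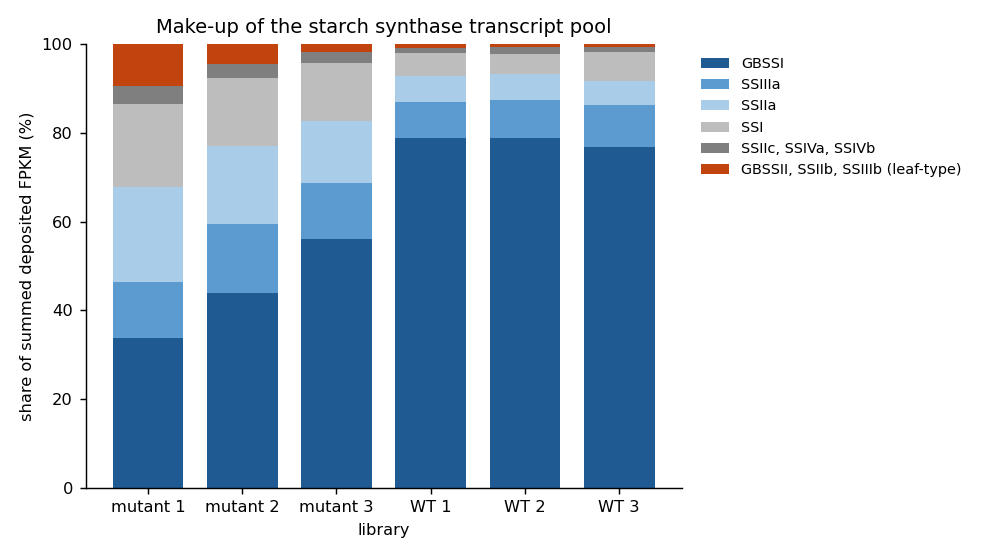
Each bar is 1 library, divided by the share (in %) of each gene or gene group in the summed deposited FPKM of the 10 starch synthases. GBSSI holds 33.7% to 56% of the mutant bars and 76.9% to 78.9% of the wild-type bars, and the leaf-type genes hold 1.91% to 9.36% and 0.675% to 0.826%.

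Within the 8 soluble genes the enzymes SSI, SSIIa and SSIIIa, held 87.3% to 92.8% of the summed FPKM in the mutant and 91.1% to 93.9% in wild type. Their balance differed. SSIIIa held 39.2%, 41% and 41.2% of the soluble pool in wild type, and 21.1%, 29.2% and 29.6% in the mutant. SSIIa held 24.1% to 28.5% in wild type and 32.8% to 35.1% in the mutant, and SSI 21.6% to 28.5% and 28.9% to 31.1%. None of these 3 shares overlapped between the lines, SSI by a narrow margin.

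The endosperm-type and the leaf-type gene of a class were then compared within each library, as a ratio of deposited FPKM. No scaling between libraries can alter this ratio. The tested log2 ratio used FPKM + 0.1, and the added offset makes it depend somewhat on scale where a level is low. The GBSSI to GBSSII ratio was 183.2, 165.0 and 210.5 in wild type, and 5.83, 15.4 and 45.3 in the mutant. The lines did not overlap, and mutant library 1 was farthest from wild type. The mean log2 ratio differed by -3.52 (mutant minus wild type, SE 0.86, 11.5-fold), with FPKM + 0.1. The two-sided exact permutation p was 0.1, the smallest that 3 against 3 libraries allow, and 0.15 after Benjamini-Hochberg adjustment over the 3 pairs. Without mutant library 1 the difference was -2.80, and without mutant library 3 it was -4.27.

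The SSIIIa to SSIIIb ratio showed a smaller difference in the same direction. It was 27.8, 34.5 and 37.3 in wild type, and 4.25, 11.2 and 23.3 in the mutant. Mutant library 3 came close to the wild-type range without entering it. The mean log2 ratio differed by -1.65 (SE 0.72, 3.14-fold, exact permutation p = 0.1, 0.15 adjusted over the 3 pairs). It differed by -1.01 without mutant library 1 and by -2.23 without mutant library 3.

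For the SSII class the ratios overlapped. SSIIa to SSIIb was 55.8, 158.5 and 93.4 in wild type, and 37.1, 63.6 and 104.2 in the mutant. The difference in mean log2 ratio was -0.50 (SE 0.57, exact permutation p = 0.5, 0.5 adjusted over the 3 pairs). SSIIb was low and varied 3.11 times between wild-type libraries in normalized FPKM, which limits this ratio. No difference was detected, and no pair could reach an exact permutation p under 0.1 with 3 against 3 libraries.

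**Figure D3:**
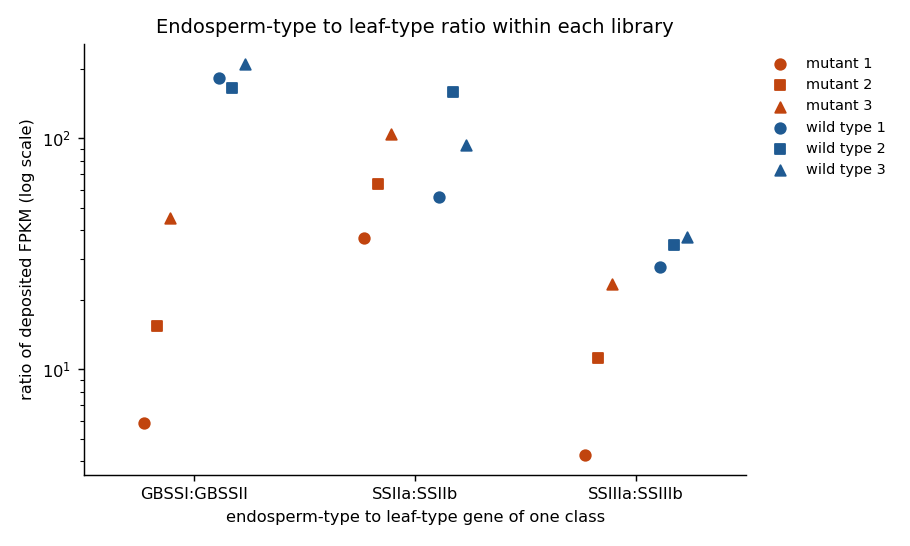
Each point is the ratio of deposited FPKM of an endosperm-type to a leaf-type gene in 1 library, on a log axis, with colour for the line and symbol for the library number. The ratios of GBSSI to GBSSII (5.83 to 45.3 in the mutant, 165.0 to 210.5 in wild type) and of SSIIIa to SSIIIb (4.25 to 23.3 and 27.8 to 37.3) separate the lines, and those of SSIIa to SSIIb (37.1 to 104.2 and 55.8 to 158.5) do not.

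Within the mutant line, libraries stood in 1 order for most of the family in normalized FPKM. GBSSI, SSI, SSIIa, SSIIc, SSIIIa and SSIVb were lowest in mutant library 1 and highest in mutant library 3, and GBSSII, SSIIb and SSIIIb were highest in library 1 and lowest in library 3. SSIVa was the exception, with its highest level in library 2. The TMM factors that divide these levels were 1.884, 1.571 and 1.157, so the order depends on the scaling. In deposited FPKM GBSSI, GBSSII, SSIIb and SSIIIb kept their order. There SSI, SSIIa, SSIIIa and SSIVb were highest in library 2, and SSIIc and SSIVa were highest in library 1. The storage transcript shares of 0.414%, 7.18% and 21.5% in the mutant stood in the order of GBSSI. The part of this difference between libraries in the values above was not tested.

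The direction of several soluble genes depended on the scaling. With total-count scaling, where the median feature had a log2 fold change of 1.27, with 71.9% of features called higher and 3.76% lower, 7 of the 10 genes were called higher, 1 lower and 2 not called. GBSSI was still called lower (log2 fold change -1.53, SE 0.39, edgeR adjusted p = 0.0059) and GBSSII higher (2.09, SE 0.37, adjusted p = 9.3e-04). SSI (0.74, edgeR adjusted p = 0.029), SSIIa (0.84, 0.0093) and SSIVb (0.55, 0.031) turned positive and were called higher. SSIVb was thus called in opposite directions by the 2 scalings. The other genes called higher were SSIIb, SSIIIb and SSIVa. SSIIc turned positive (0.34) without passing, and SSIIIa was at -0.09 (SE 0.29, edgeR adjusted p = 0.78). With the storage and seed allergen rows removed before total-count scaling, the median feature was at 0.67, GBSSI was called lower (-2.05, adjusted p = 0.0043), and GBSSII (1.45, adjusted p = 0.0058), SSIIIb (1.11, adjusted p = 0.03) and SSIVa (0.75, adjusted p = 0.0087) were called higher.

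Measured from the median feature, the genes moved little between scalings, since a change of scaling shifts all features by nearly the same amount. This likeness is built in and adds no support to the calls. GBSSI was at -2.64 log2 units from the median feature with TMM, at -2.80 with total-count scaling and at -2.72 with storage rows removed. SSIIIa was at -1.28, -1.36 and -1.32 in the same order, SSIIc at -0.88, -0.93 and -0.91, SSIVb at -0.69, -0.72 and -0.72, and GBSSII at 0.75, 0.82 and 0.78. The calls of this text are therefore statements relative to the typical gene of these libraries.

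**Figure D4:**
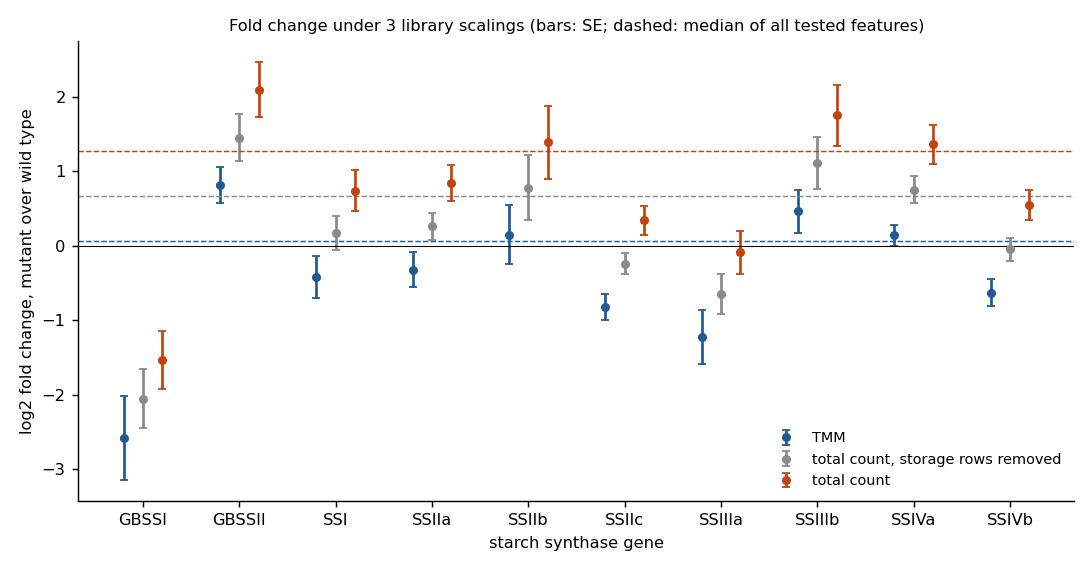
Points are log2 fold changes (mutant over wild type) of the 10 genes with their SE under 3 scalings, and each dashed line is the median of all tested features under the scaling of its colour. GBSSI lies below 0 and GBSSII above 0 under all 3, while SSI, SSIIa, SSIIc and SSIVb lie on either side of 0 (-0.42 to 0.74 for SSI).

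The enzymes on either side of the synthases were taken from a list of 17 loci, of which 16 matched a row and were tested. They supply ADP-glucose, branch or debranch the glucan, or act on it as phosphorylases and disproportionating enzymes. Of the 16, 2 rose (AGPS1 and BEIIa), 2 fell (AGPL3 and ISA1) and 12 did not pass, with a median log2 fold change of -0.12 beside 0.06 for all features. The 4 calls among 16 are near the 31.2% of all tested features that were called (15.8% higher, 15.4% lower). With total-count scaling 10 were called higher and 1 lower (median 1.14), with storage rows removed 7 and 1, with limma on log2(FPKM + 1) 9 and 1, and with the DESeq2 Wald test 2 and 6. ISA1, the isoamylase that trims misplaced branches, was at 60.3, 104.4 and 128.5 normalized FPKM in the mutant and at 331.3, 401.5 and 284.9 in wild type. It fell by 1.79 on the log2 scale (SE 0.32, edgeR adjusted p = 0.0053).

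Of the 3 branching enzymes, 1 passed the test. BEIIa, a branching enzyme active in leaves and other tissues as well as in seeds, was at 87.6, 76 and 43.8 normalized FPKM in the mutant and at 39.7, 37.2 and 42.2 in wild type, and it rose 1.74-fold (SE 0.24 on the log2 scale, edgeR adjusted p = 0.038). The endosperm branching enzyme BEIIb was at 756.0, 1032 and 1358 normalized FPKM in the mutant and at 1815, 1829 and 1922 in wild type. Here its lines did not overlap, as for 49% of all tested features, but it did not pass (log2 fold change -0.82, SE 0.32, edgeR adjusted p = 0.084). In deposited FPKM every mutant library of BEIIb was above every wild-type library (1425, 1621 and 1571 against 1298, 1146 and 1252). BEI, at 85.6, 364.1 and 671.9 normalized FPKM in the mutant and at 1480, 1445 and 1461 in wild type, did not pass either (-1.97, SE 0.75, adjusted p = 0.078). BEI passed without mutant library 1 (adjusted p = 0.028) or 3 (0.024, with a log2 fold change of -2.72), and BEIIb without mutant library 3 (0.031). The DESeq2 Wald test on all libraries called both, with adjusted p = 0.0011 for BEI and 0.0028 for BEIIb. BEIIa did not pass without mutant library 1 (0.076) or 2 (0.12) or without wild-type library 1 (0.11), 2 (0.11) or 3 (0.089).

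Of the subunits of ADP-glucose pyrophosphorylase, which makes the substrate of the synthases, AGPS1 was at 167.6, 169.8 and 142.0 normalized FPKM in the mutant and at 79, 112.3 and 70 in wild type. It rose 1.84-fold (SE 0.24 on the log2 scale, edgeR adjusted p = 0.025). AGPS2, more abundant than AGPS1 in every library, was at 347.9, 594.0 and 975.2 in the mutant. In wild type AGPS2 was at 1618, 1516 and 1496, so in normalized FPKM it was lower in the mutant without overlap. In deposited FPKM its lines overlapped. AGPS2 did not pass (log2 fold change -1.27, SE 0.48, edgeR adjusted p = 0.076). AGPL3 was at 11, 18.2 and 29.5 normalized FPKM in the mutant and at 38.9, 44.1 and 34.5 in wild type, and was lower by a factor of 2 (log2 SE 0.32, edgeR adjusted p = 0.047). AGPL2, the main large subunit of the endosperm, was at 461.4, 759.3 and 1043 normalized FPKM in the mutant and at 1203, 1240 and 1333 in wild type. Here its lines did not overlap, as for 49% of all tested features, and it did not pass (-0.74, SE 0.41, edgeR adjusted p = 0.21). In deposited FPKM every mutant library of AGPL2 was above every wild-type library (869.4, 1193 and 1206 against 860.8, 777.0 and 868.3). The DESeq2 Wald test called AGPL2 (adjusted p = 0.034). AGPS1 lost its call without mutant library 2 (adjusted p = 0.092) and without wild-type library 1 (0.11) or 3 (0.1). AGPL3 lost it without mutant library 2 (0.14) and without wild-type library 1 (0.12), 2 (0.13) or 3 (0.086), and with no low-count filter its adjusted p was 0.12. The pullulanase PUL was the locus of this list with no match and was not analysed here.

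The regulator list held 8 genes tied to starch formation in rice, not all of them transcription factors. Of the 8 genes, 3 fell (NF-YB1, NAC20 and RPBF) and 5 did not pass, beside 15.4% of all features called lower. Their median log2 fold change was -1.04. The count was 2 higher and 1 lower with total-count scaling, 1 lower with no low-count filter (adjusted p = 0.056 for NAC20 and 0.085 for RPBF), and 6 lower when mutant library 3 was left out. NF-YB1, a nuclear factor Y subunit of the endosperm, was at 54.2, 62.6 and 81.6 normalized FPKM in the mutant and at 142.9, 149.8 and 152.1 in wild type (log2 fold change -1.16, SE 0.18, edgeR adjusted p = 0.003). It was not called with total-count scaling (0.00, SE 0.19) or with limma. NAC20, a NAC factor of storage and starch genes, had a log2 fold change of -2.05 (SE 0.54, edgeR adjusted p = 0.024), and RPBF, a Dof factor, one of -1.83 (SE 0.55, adjusted p = 0.038). NAC20 and RPBF lost their calls without mutant library 2 (adjusted p = 0.093 and 0.13) and also when wild-type library 1 (0.065 and 0.095), 2 (0.068 and 0.1) or 3 (0.056 and 0.077) was removed. Their log2 fold changes became -2.93 and -2.74 when mutant library 3 was left out. With TMM scaling 5 of the 8 genes were lower without overlap, 1 was higher and 2 overlapped, beside 23.8% lower and 25.3% higher of all tested features. Among those that did not pass, bZIP58 was at 8.27, 26.1 and 71.9 in the mutant. In wild type bZIP58 was at 112.4, 106.6 and 132.4 (-1.73, SE 0.64, edgeR adjusted p = 0.073). RSR1, an AP2 factor that represses starch genes in rice, was at 17.3, 23.8 and 21.4 normalized FPKM in the mutant and at 21.3, 15.4 and 19.9 in wild type, and the lines overlapped (0.15, SE 0.18, adjusted p = 0.56). In deposited FPKM every mutant library of RSR1 was above every wild-type library (32.6, 37.3 and 24.8 against 15.2, 9.66 and 12.9). RSR1 was called higher with total-count scaling (1.33, edgeR adjusted p = 0.0012) and with storage rows removed (0.74, adjusted p = 0.0097).

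**Figure D5:**
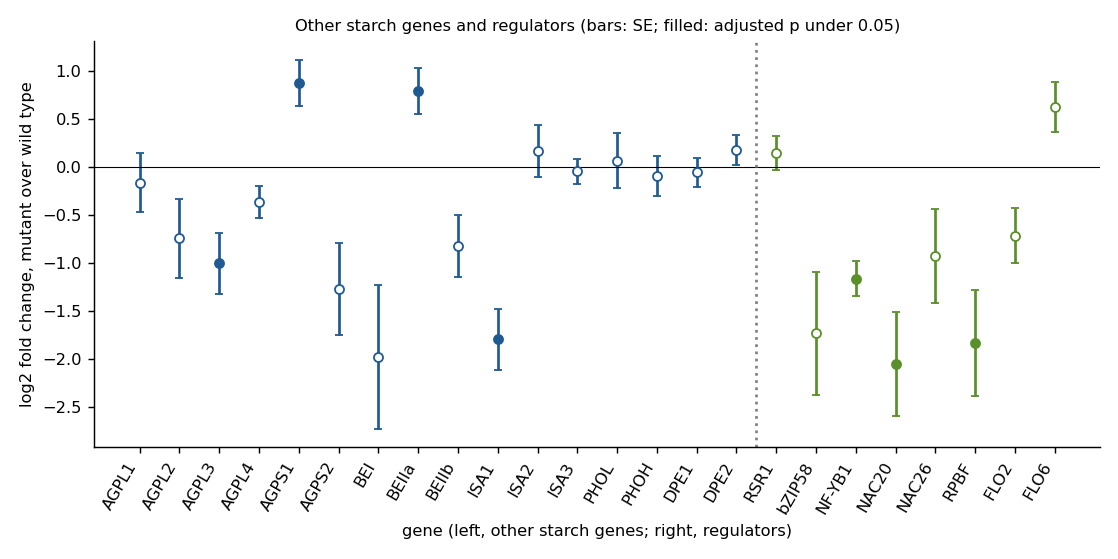
Log2 fold changes (mutant over wild type, TMM scaling) with their SE for 16 other starch genes, left of the dotted line, and the 8 genes of the regulator list, right of it. Filled points passed at an adjusted p under 0.05, and they are AGPS1 and BEIIa above 0 and AGPL3, ISA1, NF-YB1, NAC20 and RPBF below 0.

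The described features with a pattern most like that of GBSSI over the 6 libraries were the amylase inhibitor RA16 (r = 0.999), the cyclin-dependent kinase CDKF-3 (0.999), the zinc finger CCCH protein OS05G0525900 (0.999), the SWR1-complex protein OS05G0540800 (0.998) and the seed allergen RAG2 (0.998). Likeness was Pearson's r of log2 normalized CPM among 2468 described features averaging 5 normalized CPM or more, and 41 of them had an r above 0.99. For GBSSII they were the DNA-binding protein OS02G0158400 (0.995), a fucokinase (0.991), an NADPH:quinone oxidoreductase (0.988), a pantothenate kinase (0.986) and the triose phosphate translocator TPT (0.985), with 2 features above 0.99. TPT, which exports triose phosphate from chloroplasts, had 62.2, 43.1 and 25 normalized CPM in the mutant against 24, 21.6 and 23.7 in wild type. These 6 points share libraries and fall into 2 lines, so r describes these libraries alone.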

How the data were processed

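Groups were taken from the genotype labels. The submitters' processing notes name Bowtie 0.12.2. What counted the reads, on which build and annotation, and with or without strand was not given in the sources used here. The authors deposited 1 table of read counts and FPKM per feature, per the file headers. Deposited counts were whole numbers and were tested without rounding. FPKM values were used per length, and the feature length implied by count and FPKM was the same in all libraries for the 10 genes. Related starch synthases may share reads, so how reads were split between them is uncertain. No sequences are shown.

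The line was the only term in edgeR 4.0.16 (R 4.3.3; filterByExpr, TMM, glmQLFTest), fitted to all features. Standard errors are the absolute log2 fold change over the square root of F. TMM gave 1.157 to 1.884 in the mutant and 0.627 to 0.715 in wild type. A count of 0 would allow up to 3 counts, or 0.0751 to 0.243 normalized CPM, for counting error only; no starch synthase was near it. Library pairs of a line differed beyond sampling noise (chi-square per gene 10.91 to 365.99). Ratios were compared by a two-sided exact permutation test. Both tests were tested on simulated data. Python 3.11.15 was used for tables.

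Alternatives were a replicate block, DESeq2 size factors, total-count scaling with and without storage rows, no low-count filter, the DESeq2 1.42.0 Wald test, limma 3.58.1 on log2(FPKM + 1) where the average FPKM was 1 or more, each library left out, other ratio offsets, and the sum of rows at a locus. The genes, lists and tests were chosen with earlier results of these data known. Named genes were the 10 members and, of 17 other starch loci, those that passed plus AGPL2, BEI and BEIIb. Of the 8 genes of the regulator list those that passed were named, and so were the 5 features most like GBSSI and GBSSII. RSR1, AGPS2 and bZIP58 were added after their values were seen.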

Additional observations from a re-analysis of the deposited data

How the results depend on the processing

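Features called numbered 7148 (3619 higher, 3529 lower). They were 17344 with total-count scaling (95% higher), 11710 with that scaling after storage rows were removed (86.3% higher) and 15444 with limma on log2(FPKM + 1) (94.4% higher), against 50.6% higher in the main test; without the low-count filter 61.5% were higher. Leaving out single libraries gave 4012 (mutant library 2) to 8328, and 4557 without wild-type library 1. Of the starch synthases 4 were called lower and 1 higher. These were 1 and 7 with total-count scaling, 1 and 3 with storage rows removed, 2 and 1 without the low-count filter, and 1 and 7 with limma. Over left-out libraries the lower calls ran from 0 (without mutant library 2) to 4 and the higher calls from 0 to 2 (0 without any 1 library other than mutant library 3), with edgeR. At an unadjusted p under 0.05 every such fit had 4 lower and 1 higher, or 2 higher without mutant library 3, and the DESeq2 Wald test on all libraries called 4 lower and 1 higher.

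Directions turned as follows. With total-count scaling the log2 fold change was 0.74 for SSI, 0.84 for SSIIa, 0.34 for SSIIc, 0.55 for SSIVb, 0.10 for AGPL3, 0.38 for AGPL2 and 0.32 for BEIIb. With limma it was 0.77, 0.84, 0.31, 0.52, 0.07, 0.37 and 0.32 for these 7 in the same order. With storage rows removed it was 0.17 for SSI and 0.26 for SSIIa. NF-YB1 did not turn but stood at 0.00 with total-count scaling and at -0.00 with limma, and was called in neither. SSIIb was at -0.10 without mutant library 1 and -0.18 without wild-type library 2, and up to 0.60 over the other left-out libraries. The median feature was at 1.27, 0.94 and 0.67 under these 3 settings.

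The differences in paralog ratio kept their sign throughout. Over left-out libraries they ran from -4.27 to -2.80 for GBSSI to GBSSII, -0.85 to -0.14 for SSIIa to SSIIb and -2.23 to -1.01 for SSIIIa to SSIIIb. The SSII difference was -0.58 with no offset and -0.08 with an offset of 1 FPKM.

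Same-numbered libraries of the lines did not deviate together (r = 0.068, -0.043 and -0.025 for numbers 1, 2 and 3), so the numbers are not taken as pairs. With the replicate block 6048 features were called, with 3 starch synthases lower and 1 higher, since SSIIIa missed the threshold (adjusted p = 0.053), as did BEIIa (0.065). Pairing cannot change the mean ratio differences of -3.52, -0.50 and -1.65. Their exact sign-flip p over pairs was 0.25, 0.5 and 0.25, where 0.25 is the smallest that 3 pairs allow. The low level of SSIIb and its spread among wild-type libraries limit what can be said of it.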
